A study of Mus musculus with 23 samples.

Results

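D700 is a deletion in mouse embryos that removes most of the DNA between Shh and its limb enhancer, the ZRS. Chromosome conformation capture carbon copy (5C) reads how often pairs of restriction fragments of a chosen region are ligated together in fixed nuclei, and so gives a map of contacts within that region. The D700 data are 2 libraries, labelled biological replicates 1 and 2, each a matrix in which 2 technical replicates (4 of the 23 samples in all) were merged. They were set against the 5 E11.5 libraries whose labels name no edit: embryo bodies (1 library), anterior limb buds (2 libraries) and posterior limb buds (2 libraries). All are from CD1 mice at the same stage, E11.5, when the limb buds are growing out.

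The D700 libraries were made from whole embryos, whereas the unedited ones come from embryonic bodies or dissected limb buds. Genotype and tissue therefore cannot be told apart in this comparison. The labels do not state whether D700 embryos carried the deletion on both copies of the chromosome, or how many embryos went into a library. The labels do not say that biological replicates came from separate litters, so the p-values below measure the spread between these libraries. The embryo bodies library was run in 2014 and the others in 2015.

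Shh encodes Sonic hedgehog, a secreted signal that patterns the limb, the neural tube and many other tissues. The ZRS is the enhancer that drives Shh in the posterior margin of the limb bud, and it lies far from Shh inside an intron of another gene, Lmbr1. Both sit near opposite ends of one topologically associating domain, a stretch of chromosome whose parts contact each other more than they contact the neighbouring domains, and CTCF-bound boundaries flank that domain. The comparison asks what happens to Shh, the ZRS and the 2 adjoining domains when the interior of the Shh domain is missing.

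The matrices divide 28.317 to 29.997 Mb of chromosome 5 (mm9) into bins of 21 kb numbered from 0. Bins 27 to 58 (28.884 to 29.556 Mb) are missing from both D700 matrices. These 32 bins span 672 kb and are taken here as the deletion, with its ends known only to the bin. Of the 48 bins left, bins 25 and 64 had no value in any library, so 46 were compared. Bin 26 (28.863 to 28.884 Mb) and bin 59 (29.556 to 29.577 Mb) meet at the junction. Shh lies in bin 22 (28.779 to 28.800 Mb) and the ZRS in bin 63 (29.640 to 29.661 Mb), near its left edge. The gene positions are known mm9 positions and are not in the deposited matrices. The retained bins fall into 4 segments. The left domain (bins 0 to 20) holds Insig1, En2, Cnpy1 and Rbm33. The Shh end (bins 22 to 26) and the Lmbr1 end (bins 59 to 64) are what remains of the Shh domain. The right domain (bins 66 to 79) holds Nom1, Mnx1 and Ube3c, while Lmbr1 itself reaches from bin 59 to bin 66. Bins 21 and 65 are the boundary bins.

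The deposited contact values have no stated unit, and the depth in reads is unknown. Summed over the retained pairs at least 2 bins apart on the same side of the junction, they came to 31138 and 30228 in D700 libraries, against 14483 in embryo bodies, 14555 and 16254 in anterior limb buds and 14143 and 14188 in posterior limb buds. The D700 totals were thus about 2 times the unedited ones even for pairs whose spacing the deletion does not touch. Each library was therefore scaled to the same total over these same-side pairs, and a value below is on that scale unless said otherwise. A change means a change relative to same-side contacts. Pairs that cross the junction made up 31.9% and 33.9% of the summed values in D700 libraries, against 32.3% in embryo bodies, 30.6% and 26.9% in anterior and 31.8% and 32.4% in posterior limb buds. These shares lay close together.

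After removal of the mean at each separation, the D700 libraries correlated with each other at r = 0.904 over 473 same-side pairs and 0.84 over 519 junction pairs. Each D700 library with each unedited one gave 0.776 to 0.880 on the same side and 0.418 to 0.739 across the junction, and unedited libraries among themselves gave 0.740 to 0.893 and 0.443 to 0.726. These are descriptions of the matrices. About 29.1% of pairs in a library carry the same value as the pair of the same first bin with the preceding second bin. Repeats along the first bin also occur and are not in this share, so neighbouring pairs are not independent.

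The contact between the Shh bin and the ZRS bin did not differ detectably between D700 embryos and unedited tissue once libraries were scaled. Its value was 36.9 and 46.6 in D700 libraries, against 30.6 in embryo bodies, 44.2 and 45.3 in anterior limb buds and 43.8 and 42.3 in posterior limb buds. The groups overlapped, with embryo bodies lowest and D700 replicate 2 highest. The mean was 41.7 ± 6.83 in D700 embryos (SD, n = 2) and 41.2 ± 6.04 in the unedited libraries (SD, n = 5). By limma the log2 difference was 0.02 ± 0.18 (SE), with a 95% interval of -0.36 to 0.40 and an adjusted p of 0.979.

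This result depends on the scaling. As deposited, the same pair stood at 59.6 and 73.0 in D700 libraries, against 23.0 in embryo bodies, 33.4 and 38.1 in anterior and 32.1 and 31.1 in posterior limb buds, a log2 difference of 0.94 (limma, adjusted p = 8.2e-04). In the deposited values the median over all 992 tested pairs was higher by 0.82 on the same scale, and over same-side pairs by 0.87, and 941 pairs passed the threshold. The Shh and ZRS pair thus changed by about as much as the rest of the matrix.

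The distance between these bins is not the same in the 2 genotypes. They are 861 kb apart in the reference and 189 kb apart when the missing bins are taken out. Same-side pairs at that shorter separation (28 pairs) give the level that other bins of the same library reach at 189 kb. The Shh and ZRS pair stood at 1.26 and 1.48 times their mean in D700 libraries. In the unedited libraries, where the true spacing is the long one, the same ratio was 1.02 in embryo bodies, 1.54 and 1.59 in anterior and 1.36 and 1.46 in posterior limb buds. In D700 embryos the pair was above 21 and 22 of the 28 same-side pairs. It was above 17 in embryo bodies, 23 and 24 in anterior and 22 and 24 in posterior limb buds. The ratios overlapped, and in the unedited libraries, at the long spacing, the pair stood at or above the same-side mean for 189 kb.

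Pairs next to it behaved likewise. Bin 22 with bin 62 differed by 0.16 on the log2 scale, bin 23 with bin 62 by 0.17 and bin 23 with bin 63 by -0.24, none past the threshold (limma, adjusted p from 0.884 to 0.935). Bin 24 with bins 62 and 63, which share 1 value, stood at 43.3 and 47.7 in D700 libraries, against 28.4 to 37.0 in the 5 unedited ones. These groups did not overlap, but the log2 difference of 0.36 did not pass the adjustment (limma, adjusted p = 0.598).

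**Figure D1:**
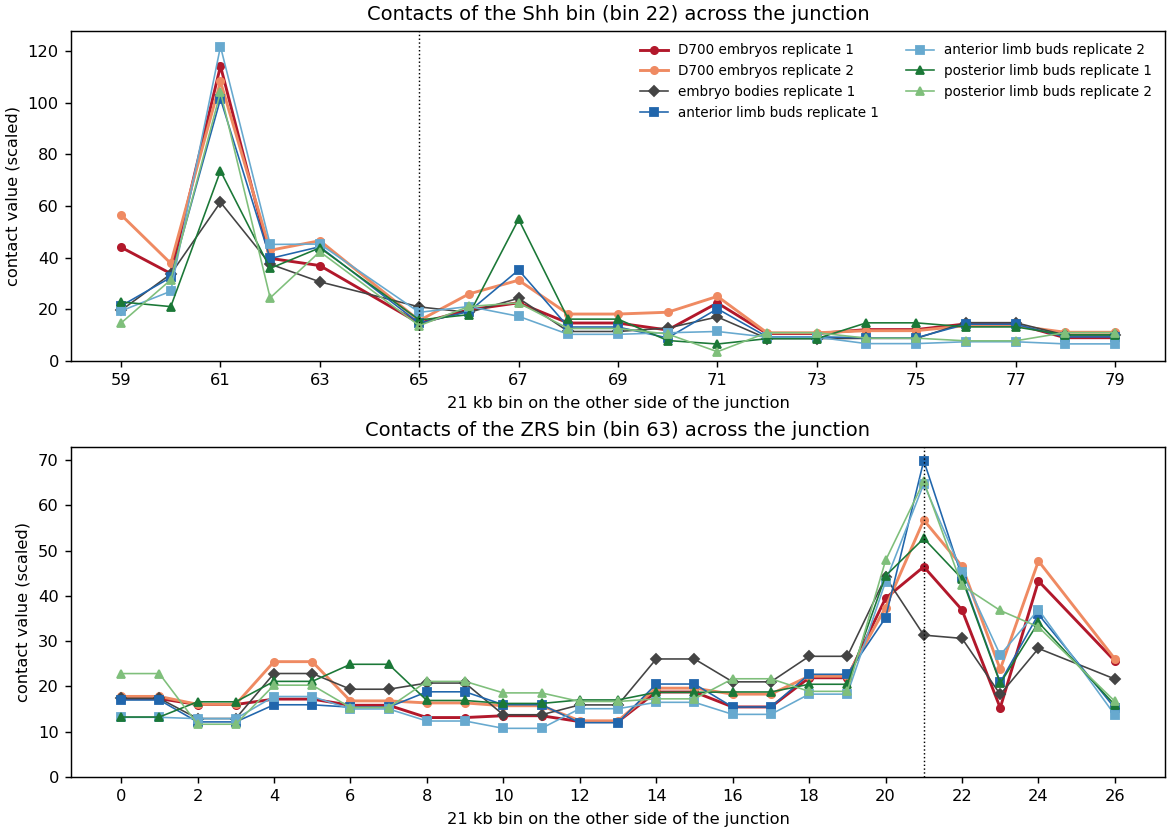
Scaled contact value of the Shh bin (top) and of the ZRS bin (bottom) with each retained bin on the other side of the junction, 1 line per library; both D700 libraries are drawn with thick lines and circles, and the dotted lines mark the boundary bins 65 and 21. The Shh bin peaks at bin 61 in all 7 libraries and the ZRS bin at bin 21 in all but embryo bodies, where bin 20 is higher, and the D700 lines stand apart from the others at bin 59.

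Along the Lmbr1 end, the Shh bin touched bin 61 (29.598 to 29.619 Mb), inside Lmbr1, most strongly in each of the 7 libraries. That value was 114 and 108 in D700 libraries, against 61.5 in embryo bodies, 102 and 122 in anterior limb buds and 73.6 and 104 in posterior limb buds. The groups overlapped, and the log2 difference was 0.28 (limma, adjusted p = 0.877). Seen from the ZRS bin, the strongest contact among bins 21 to 26 was the boundary bin 21, next to Shh, in every one of the 7 libraries. It measured 46.4 and 56.8 in D700 libraries, against 31.3 in embryo bodies, 69.9 and 64.8 in anterior and 52.7 and 65.3 in posterior limb buds. In embryo bodies bin 20, the last bin of the left domain, was higher still, at 44.2, whereas bin 21 was the highest of all bins left of the junction in the other 6 libraries.

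Among single pairs, those that passed as higher in D700 embryos joined bins that the missing stretch brought closer together. Of the 992 pairs tested, 3 were higher (0.302%) and 0 lower at an adjusted p under 0.05. All 3 cross the junction, where they are 3 of 519 pairs (0.578%), and all 3 join the Shh end with the Lmbr1 end. Without adjustment, 58 pairs were higher and 11 lower at p under 0.05, of which 15 and 11 were among the 473 same-side pairs. With either D700 library left out, the lone one is assumed to vary like the unedited libraries. The log2 differences of these 3 pairs were then 0.92 to 1.24, and none passed (limma, adjusted p from 0.109 to 0.468). All 3 passed against the 4 limb bud libraries alone. Against the embryo bodies library alone their log2 differences were 0.95 to 1.23, and none of them passed.

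Bin 23 (28.800 to 28.821 Mb), just beyond Shh, met bin 59 at 57.2 and 55.8 in D700 libraries, against 19.3 in embryo bodies, 22.8 and 25.1 in anterior and 23.6 and 16.0 in posterior limb buds. Both D700 values were above every unedited one. The log2 difference was 1.13 ± 0.17 (SE; limma, adjusted p = 0.0082).

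Bin 26, the last bin left of the junction, met bin 60 (29.577 to 29.598 Mb) at 45.1 and 54.9 in D700 libraries, against 21.7 in embryo bodies, 15.6 and 16.5 in anterior and 20.8 and 18.1 in posterior limb buds. The groups again lay apart, by 1.12 ± 0.16 on the log2 scale (SE; limma, adjusted p = 0.0082). These bins are 42 kb apart without the missing bins.

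The Shh bin itself met bin 59 at 44.0 and 56.6 in D700 libraries, against 19.6 in embryo bodies, 21.3 and 19.3 in anterior and 22.8 and 14.6 in posterior limb buds. Of the 3 calls this is the one that contains the Shh gene, with a log2 difference of 1.07 ± 0.17 (SE; limma, adjusted p = 0.0118). The Shh bin thus contacted the junction side of the Lmbr1 end more in D700 embryos, relative to same-side contacts, while its contact with the ZRS bin 4 bins further on did not pass the test.

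The pair with the highest log2 difference of all did not pass. Bin 24 with the boundary bin 65 stood at 105 and 57.1 in D700 libraries, against 0 in embryo bodies, 25.8 and 19.5 in anterior and 44.3 and 16.8 in posterior limb buds, a log2 difference of 1.76 ± 0.51 (SE; limma, adjusted p = 0.273). It is named because of that value, and its spread within both groups was wide.

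**Figure D2:**
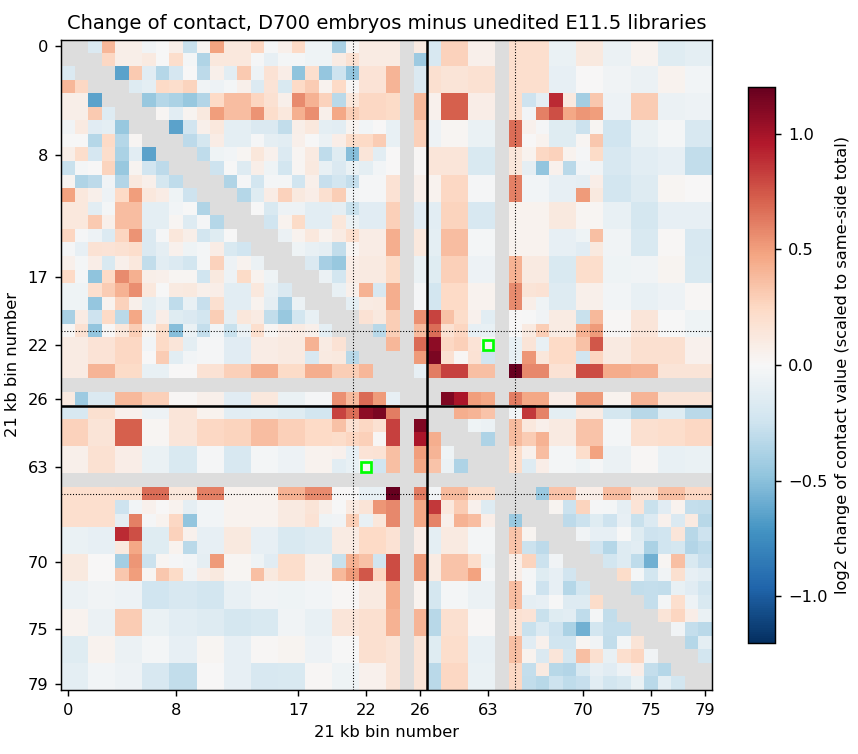
Log2 change of the scaled contact value, D700 embryos minus the 5 unedited libraries, for every tested pair of retained 21 kb bins; both axes give the bin number, solid lines mark the junction, dotted lines the boundary bins 21 and 65, green squares the Shh and ZRS pair, and grey marks pairs without a test. The red block beside the crossing of the solid lines holds the 3 called pairs, and the Shh and ZRS square stands near 0.

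The change across the junction was larger at shorter new distances. The median log2 change was 0.82 for the 10 pairs 42 to 105 kb apart without the missing bins, which include the 3 calls. It was 0.24 for 31 pairs at 126 to 210 kb, 0.10 for 55 pairs at 231 to 315 kb, 0.11 for 80 pairs at 336 to 420 kb, 0.01 for 192 pairs at 441 to 630 kb and -0.07 for 151 pairs beyond. Same-side pairs at the same separations had medians between -0.05 and 0.10.

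The same pairs can be set against same-side pairs in the same range of separations, without matching each pair to its own separation. For the 10 pairs of the Shh end with the Lmbr1 end at 42 to 105 kb, the median was 87.1% and 100.4% of the median of 152 same-side pairs in D700 libraries. It was 44.8% in embryo bodies, 36.4% and 33.2% in anterior limb buds and 46.4% and 51.3% in posterior limb buds, where the missing stretch still lies between these bins. For the 9 pairs at 126 to 210 kb, among them Shh with the ZRS, the same share was 157% and 154% in D700 libraries, against 107% in embryo bodies, 133% and 150% in anterior and 127% and 128% in posterior limb buds. The shorter class separated the groups widely. In the longer one both D700 libraries were above every unedited one. The gap was a few percentage points to anterior limb bud replicate 2 and wider to the others. Within the shorter range, most of the 10 pairs lay below the same-side mean at their own separation in both D700 libraries. Bin 26 with bin 60 stood at log2 ratios of -0.88 and -0.63 to that mean, and bin 24 with bin 61 at 0.41 and 0.65. These shares and ratios are descriptions and were not tested.

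**Figure D3:**
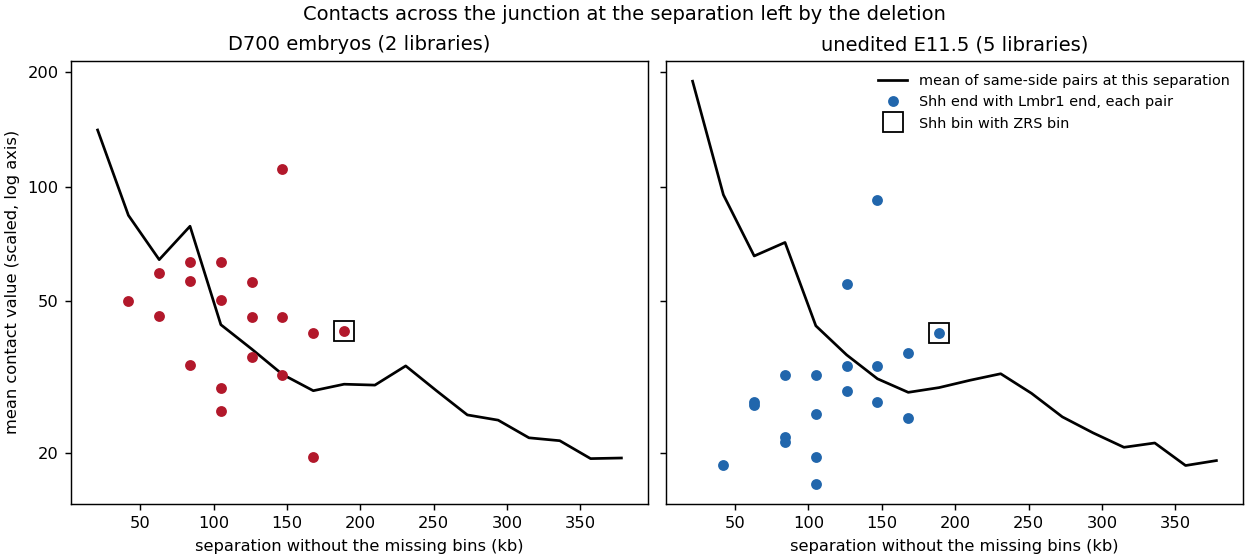
Mean scaled contact value (log axis) against the separation in kb left when the missing bins are taken out, for D700 embryos (left, mean of 2 libraries) and unedited libraries (right, mean of 5); dots are pairs of the Shh end with the Lmbr1 end, the open square marks Shh with the ZRS, and the line is the mean of same-side pairs. At 42 to 105 kb most dots lie below the line in D700 embryos, though less far than in unedited libraries, where all do. The Shh and ZRS pair lies above the line in both.

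The mean over whole blocks showed the same for the remains of the Shh domain. The 19 pairs of the Shh end with the Lmbr1 end averaged 44.6 and 50.9 in D700 libraries, against 29.4 in embryo bodies, 32.4 and 35.0 in anterior and 31.9 and 33.2 in posterior limb buds. Both D700 libraries were above all 5 unedited ones. The block mean was 47.7 ± 4.43 in D700 embryos (SD, n = 2) and 32.4 ± 2.01 in unedited libraries (SD, n = 5), a log2 difference of 0.56 ± 0.11 (SE) with a 95% interval of 0.32 to 0.80 and an adjusted p of 0.0031 by limma. It was the 1 of 10 blocks that passed as higher (10%), and 0 were lower. At an unadjusted p under 0.05, 2 blocks were higher and 0 lower. With bins 26 and 59, which flank the junction, left out, the block differed by 0.34 and no longer passed (limma, adjusted p = 0.139), and without D700 replicate 2 it differed by 0.46 (limma, adjusted p = 0.075).

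Contacts of the Shh end with the right domain, which lie across the junction and beyond the boundary at bin 65, averaged 16.1 and 18.0 in D700 libraries, against 13.3 in embryo bodies, 12.4 and 10.3 in anterior and 13.7 and 15.2 in posterior limb buds. The groups did not overlap, but the log2 difference of 0.41 ± 0.14 (SE) did not pass the adjustment over the blocks (limma, adjusted p = 0.084). It passed with 4 tissue groups in the fit, with repeated values left out and with one total over all pairs (limma, adjusted p from 0.0034 to 0.040). It also passed without anterior limb bud replicate 2 or posterior limb bud replicate 2 (limma, adjusted p = 0.018 and 0.039).

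Contacts of the Lmbr1 end with the left domain averaged 18.9 and 20.7 in D700 libraries, against 20.5 in embryo bodies, 17.5 and 14.6 in anterior and 18.3 and 17.8 in posterior limb buds. These overlapped, with a log2 difference of 0.17 ± 0.13 (SE; limma, adjusted p = 0.415). For the left domain with the right domain, whose bins come 672 kb closer, the mean was 13.7 and 14.9 in D700 libraries, against 16.5 in embryo bodies, 14.2 and 10.9 in anterior and 15.6 and 16.6 in posterior limb buds. The log2 difference was -0.03 ± 0.16 (SE; limma, adjusted p = 0.857), with a 95% interval of -0.38 to 0.32.

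Neither neighbour domain changed past the threshold within itself. Left domain contacts averaged 44.8 and 48.5 in D700 libraries, against 46.6 in embryo bodies, 49.4 and 49.6 in anterior and 47.97 and 45.7 in posterior limb buds (log2 difference -0.04, limma, adjusted p = 0.784). Of the 190 pairs in that block, 0 passed, and at an unadjusted p under 0.05 there were 6 higher and 7 lower. Over all 992 pairs 3 passed (0.302%), so a count of 0 is near that share. Right domain contacts averaged 73.1 and 56.8 in D700 libraries, against 72.1 in embryo bodies, 64.3 and 68.02 in anterior and 62.3 and 70.2 in posterior limb buds (log2 difference -0.06, limma, adjusted p = 0.767).

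Within the right domain 1 pair, bin 66 with bin 70, was the largest value of every library. It stood at 1810 and 331 in D700 libraries, against 1494 in embryo bodies, 365 and 505 in anterior and 319 and 1252 in posterior limb buds. The 2 D700 libraries thus differed widely at this pair, as did the 2 posterior limb bud libraries. The pair is part of the total used for scaling. Without it, Shh with the ZRS differed by 0.0361 and the Shh end with the Lmbr1 end by 0.5817 (log2). Without this pair, an alternative chosen after the data were seen, the right domain block differed by -0.14 ± 0.057 (log2, SE; limma, adjusted p = 0.124). Of the 78 right domain pairs, 0 passed, again near the 0.302% over all pairs. At an unadjusted p under 0.05 there were 0 higher and 3 lower.

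Contacts of the left domain with the Shh end, across the boundary at bin 21, differed by 0.17 on the log2 scale, and those of the right domain with the Lmbr1 end by 0.12 (limma, adjusted p = 0.415 and 0.593). Within the Shh end the 4 pairs averaged 55.2 and 60.9 in D700 libraries, against 34.2 in embryo bodies, 52.3 and 52.1 in anterior and 44.9 and 50.6 in posterior limb buds. The groups lay apart, but the log2 difference of 0.33 did not pass (limma, adjusted p = 0.235), although it did without anterior limb bud replicate 2 (limma, adjusted p = 0.018). The Lmbr1 end with itself differed by 0.15 (limma, adjusted p = 0.386).

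**Figure D4:**
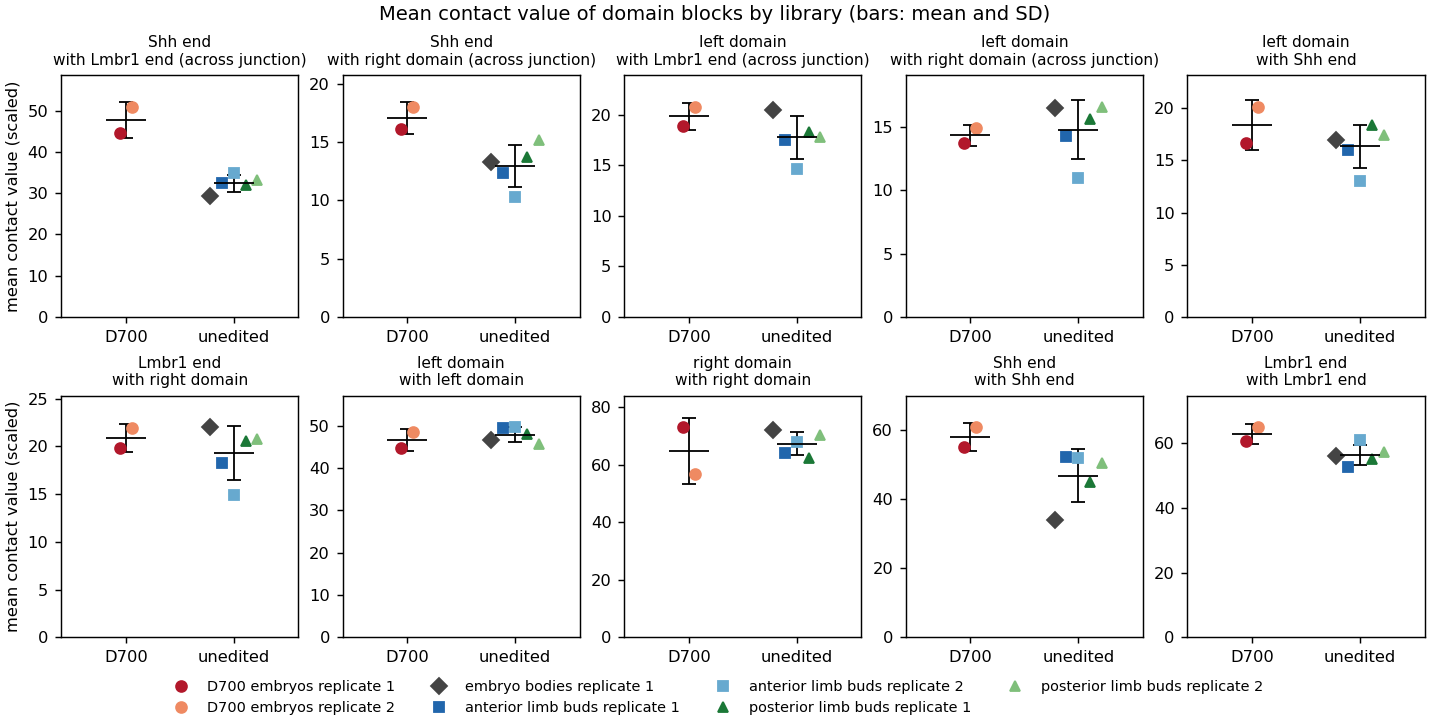
Mean scaled contact value of each of the 10 blocks, with D700 libraries left and unedited libraries right in every panel, 1 point per library and bars for the mean and SD; every axis starts at 0. The Shh end with the Lmbr1 end separates the groups (44.6 and 50.9 against 29.4 to 35.0), and so, by less, do the Shh end with the right domain and the Shh end with itself, while the groups overlap in the other 7 blocks.

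Single bins against each segment placed the change more finely. Of 183 bin means tested, 10 were higher in D700 embryos (5.46%) and 0 lower. At an unadjusted p under 0.05, 27 were higher and 2 lower. The count fell to 6 without D700 replicate 1, to 5 without D700 replicate 2 and to 6 without embryo bodies. Of the 10, 8 cross the junction and 2 lie on one side of it. The highest was bin 59 with the Shh end, at 47.7 and 53.9 in D700 libraries, against 19.5 in embryo bodies, 25.2 and 24.5 in anterior and 23.9 and 20.3 in posterior limb buds. Both D700 libraries stood far above every unedited one. The log2 difference was 0.93 ± 0.12 (SE; limma, adjusted p = 3.0e-07).

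Bin 26 with the Lmbr1 end was next, at 41.1 and 43.5 in D700 libraries, against 25.3 in embryo bodies, 16.0 and 16.5 in anterior and 24.3 and 22.5 in posterior limb buds (log2 difference 0.80, limma, adjusted p = 2.0e-05). Going away from the junction on the right, the log2 difference with the Shh end was 0.61 for bin 60 and 0.44 for bin 61 (limma, adjusted p = 4.1e-04 and 0.025). At the ZRS bin it was 0.15, with 30.3 and 36.0 in D700 libraries, against 24.7 in embryo bodies, 29.0 and 30.7 in anterior and 28.6 and 32.2 in posterior limb buds (limma, adjusted p = 0.671). The ZRS values overlapped between the groups.

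Beyond the ZRS, contact with the Shh end was higher again at some bins. It rose at the boundary bin 65 by 0.74, at bin 66 by 0.44 and at bin 71 by 0.56 (log2, limma, adjusted p = 2.6e-04, 0.022 and 0.0012). Bin 71 (29.808 to 29.829 Mb) lies in the right domain next to Mnx1, and it measured 20.1 and 24.0 in D700 libraries, against 13.6 in embryo bodies, 13.1 and 10.9 in anterior and 11.6 and 12.0 in posterior limb buds. The groups lay well apart. The value at bin 65 rests mainly on the pair with bin 24 given above, which did not pass by itself. Bins 22 and 23 share 1 value with bin 65, and it was not higher. It stood at 14.55 and 15.57 in D700 libraries, against 13.59 to 20.88 in unedited ones. Bin 26 with bin 65 overlapped between the groups, at log2 ratios to the same-side mean of -0.16 and 0.33, against -1.86 to 0.23. On the left, bin 24 rose with the Lmbr1 end by 0.61 (log2, limma, adjusted p = 6.2e-04). The other 2 were bin 22 with the Shh end, by 0.48, and bin 59 with the Lmbr1 end, by 0.40 (log2, limma, adjusted p = 0.0196 and 0.034). The call of bin 22 remained in 3 of the 7 fits that each left out 1 library.

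The Shh bin met the Lmbr1 end as a whole at 53.7 and 58.4 in D700 libraries, against 36.5 in embryo bodies, 47.8 and 51.7 in anterior and 39.4 and 43.4 in posterior limb buds. D700 libraries were above all others, but the log2 difference of 0.31 ± 0.13 (SE) did not pass (limma, adjusted p = 0.210). Its contact with the right domain differed by 0.18 and with the left domain by 0.10 (limma, adjusted p = 0.592 and 0.834). The ZRS bin differed by -0.03 with the left domain, by -0.06 with the right domain and by -0.10 with the Lmbr1 end (limma, adjusted p from 0.851 to 0.957).

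The genes of the neighbour domains showed 0 calls among 28 bin means. Over all 183 bin means 10 were called as higher (5.46%), so 0 of 28 is near that share. The 4 left domain bins hold Insig1, a regulator of sterol synthesis, En2, a homeobox factor of the developing midbrain and hindbrain, Cnpy1, a canopy family gene, and Rbm33, an RNA-binding protein. With the Lmbr1 end, brought 672 kb closer to them, their log2 differences were between 0.00 and 0.17. With the right domain they were between -0.03 and -0.01.

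The 3 right domain bins hold Nom1, a nucleolar protein, Mnx1, the homeobox factor of motor neurons and pancreas, and Ube3c, a ubiquitin ligase. With the Shh end, their log2 differences were 0.17 for Nom1, 0.36 for Mnx1 and 0.16 for Ube3c. The Mnx1 bin measured 15.2 and 21.4 in D700 libraries, against 16.0 in embryo bodies, 8.57 and 11.0 in anterior and 10.9 and 15.8 in posterior limb buds (limma, adjusted p = 0.161). The groups overlapped, with embryo bodies above D700 replicate 1. Over all 28 means of these 7 genes with the 4 segments, 0 passed (limma, adjusted p at least 0.161). Of all 183 bin means, 10 did (5.46%).

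Pairs among the 9 bins of Shh, the ZRS and these genes were added after the values were seen. Of 35 such pairs, 20 of them across the junction, 0 passed, and 0 had an unadjusted p under 0.05. Over all 992 pairs 3 passed (0.302%), so 0 of 35 is near that share. Without adjustment it was 58 higher and 11 lower of the 992. The Shh and Mnx1 bins came nearest, at 11.9 and 18.8 in D700 libraries, against 12.7 in embryo bodies, 8.84 and 10.8 in anterior and 7.84 and 10.4 in posterior limb buds (log2 difference 0.35, limma, adjusted p = 0.721). The En2 and Mnx1 bins, which lie in different neighbour domains, stood at 33.4 and 56.0 in D700 libraries, against 69.5 in embryo bodies, 45.2 and 36.8 in anterior and 35.9 and 39.6 in posterior limb buds. Among the 294 pairs of the left with the right domain it ranked 8th and 1st in D700 libraries, against 1st in embryo bodies, 1st and 2nd in anterior and 1st and 7th in posterior limb buds, so it was among the highest in all 7. The log2 difference was -0.02 (limma, adjusted p = 0.982).

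Boundaries were read by insulation, the log2 mean contact between the 5 retained bins before a bin and the 5 after it, relative to the mean of the windows that lie on one side of the junction. A low value marks a boundary. At bin 21, between the left domain and Shh, it was -0.98 and -0.81 in D700 libraries, against -1.17 in embryo bodies, -1.09 and -1.41 in anterior and -1.05 and -0.99 in posterior limb buds. Bin 21 was thus a clear dip in each library, a little shallower in D700 embryos, where the values did not overlap with the others. The difference of 0.25 ± 0.12 (SE) did not pass the test (limma, adjusted p = 0.166).

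At bin 65, between the Lmbr1 end and the right domain, insulation was -0.71 and -0.51 in D700 libraries, against -0.50 in embryo bodies, -0.86 and -1.09 in anterior and -0.76 and -0.65 in posterior limb buds. These overlapped, with a difference of 0.16 ± 0.14 (SE; limma, adjusted p = 0.490). Bin 21 was thus low in every library, and bin 65 in all but embryo bodies. There bin 65 was only a shallow dip, above bin 61 (-0.64) and bin 63 (-0.55). Neither bin 21 nor bin 65 differed past the threshold.

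Over the 38 bins with a value, 7 had higher insulation values in D700 embryos (18.4%) and 0 lower. All 7 have windows that cross the junction, at bins 23, 24, 25, 59, 60, 61 and 63, with changes between 0.34 and 0.54 (limma, adjusted p from 0.0051 to 0.030). In the unedited libraries, pairs across the junction in these windows are 672 kb further apart. These 7 values therefore compare unlike spacings and do not read a boundary. Of the 28 windows that lie on one side, 0 passed in either direction, with 1 higher and 1 lower at an unadjusted p under 0.05. Calls appeared under other settings, with 1 higher and 3 lower without the pair of bins 66 and 70, 1 higher with windows of 3 bins and 1 higher with the replicate number as a block. Neighbouring windows share pairs, so the 7 are not independent.

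**Figure D5:**
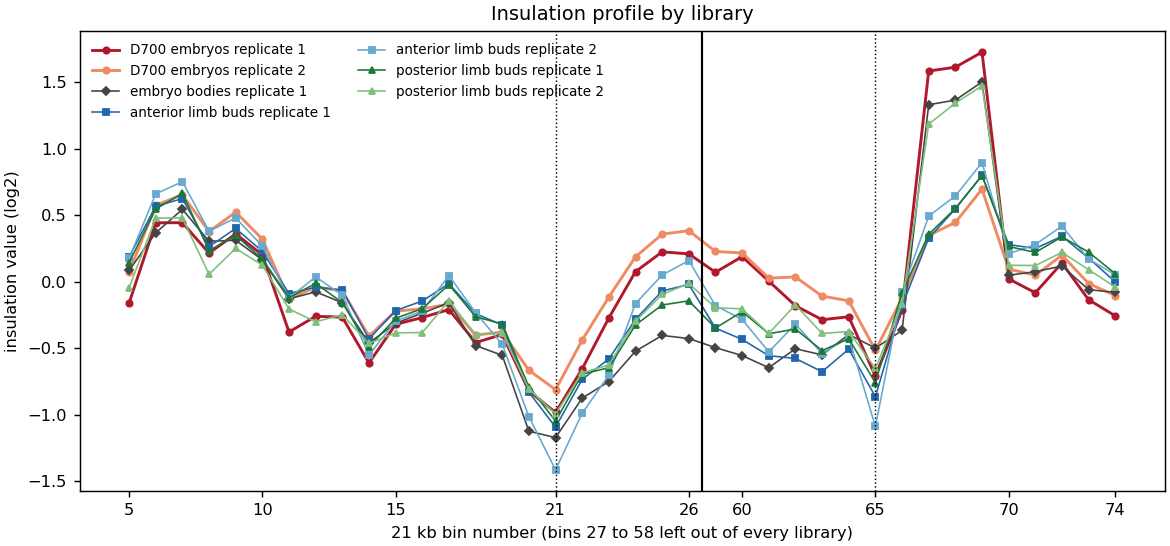
Insulation value (log2) along the retained 21 kb bins, 1 line per library, with bins 27 to 58 left out of every library; the solid line is the junction and the dotted lines are bins 21 and 65. Both D700 lines run above the others between the dotted lines except at bin 62, where 1 posterior limb bud library lies between them. All lines dip at bins 21 and 65, that of embryo bodies only slightly at bin 65.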

How the data were processed

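5C libraries were made with HindIII, per the labels' protocols. The matrices hold a signal per pair of 21 kb bins, used as deposited by the authors. Bin names give the mm9 build, per the file headers, and the submitters' processing notes name the same build. How reads were mapped, filtered or normalized is not stated in the labels or headers, the values are not whole numbers, and the depth per library is unknown.

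Samples were grouped by title. Only the 46 bins with values in the D700 matrices entered. Pairs at least 2 bins apart without the missing bins, above 0 in at least 50% of the 7 libraries, were kept. Every library was then brought to the same sum over same-side pairs. The test was limma (version 3.58.1, run in R 4.3.3) on log2(value + 8.39), where 8.39 is the 5th percentile of values above 0, so log2 changes of low values are understated. D700 libraries formed one group and the 5 unedited libraries the other, and Benjamini-Hochberg adjustment ran over all features of a kind at 0.05. Block means (no pseudocount), means of a bin with a segment, and insulation used the same fit.

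Text names were chosen by rule: the pairs of bins 22 to 24 with 62 to 64, all blocks, boundary bins 21 and 65, bins of 7 neighbouring genes with Shh and the ZRS, and called pairs without overlap. Others named for their values are bin 24 with bin 65, bins next to the junction, bin 71 and bin 66 with bin 70. Members, bins and lists were chosen with earlier results of these data known. Boundary bins come from wild type ESC libraries of the same series. Gene bins rest on known mm9 positions, and the order of all 9 genes was checked against RefSeq. On simulated data with 200 of 992 pairs changed, 69.5% of 1.5-fold, 94.0% of 2-fold and 100% of 4-fold changes were called. The simulated noise was independent between pairs and had only the spread within tissue groups, with no differences between tissues. Far more pairs were changed there than were called here. These shares may therefore overstate what the comparison itself can detect. Another 51 deposited files were not used here. No sequence is shown, since no genome of this build was used.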

Additional observations from a re-analysis of the deposited data

Results flagged for a closer look

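Among 56 groups of 5 unedited libraries checked, 3 had 1 library far from the other 4 by Dixon's test (critical value 0.71), and chance alone marks about 1 in 20. In the Shh and ZRS contact, embryo bodies stood at 30.6, against 42.3 to 45.3 in the 4 limb bud libraries. In the Insig1 bin's contacts with its own left domain, embryo bodies stood at 58.8, against 69.7 to 73.2. In the Ube3c bin's contacts with the Shh end, anterior limb bud replicate 2 stood at 7.94, against 12.5 to 13.4.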

How the results depend on the processing

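Without scaling (values as deposited), 491 junction pairs, 450 same-side pairs and 183 bin means were higher in D700 embryos. On that scale log2 differences were 0.936 for Shh with the ZRS, 1.0235 within the left and 0.9984 within the right domain, 1.227 for the left domain with the Lmbr1 end, 1.0319 for the left with the right domain, 1.4667 for the Shh end with the right domain and 0.7576 for the ZRS bin with the left domain. The higher D700 totals enter these values directly. The other causes of change below were not tested.

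The Shh and ZRS difference was -0.0202 with one total over all pairs, -0.0677 with limb bud libraries only, and -0.1227 to 0.1566 when single libraries were left out, and passed in none of these. Its log2 ratio to same-side pairs of equal separation was 0.45 in D700 embryos with their mean and 0.6759 with their median. The count of higher junction pairs was 10 with 4 tissue groups, 1 against the embryo bodies library only, 5 without the pair of bins 66 and 70 (chosen after seeing the data), and 0 to 4 with single libraries left out, 0 without either D700 library, where the lone D700 library is assumed to vary like the unedited ones. Bin means called higher numbered 6 with a pseudocount of 1, 6 with limb bud libraries only, and 5 to 10 with single libraries left out.

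The Shh end with the Lmbr1 end differed by 0.3377 without bins 26 and 59 and by 0.4638 to 0.6537 with single libraries left out. The Lmbr1 end with itself differed by -0.2438 without bins 26 and 59. The Shh end with the right domain differed by 0.3616 with one total over all pairs, 0.3973 with 4 tissue groups, 0.4106 without repeated values, and 0.3239 to 0.4859 with single libraries left out. It passed without anterior limb bud replicate 2 or posterior limb bud replicate 2, with the 3 settings just named and in the deposited values. The left with the right domain differed by 0.0151 with limb bud libraries only, 0.031 without repeated values and -0.1332 to 0.0314 with single libraries left out. Leaving out single libraries gave -0.0958 to 0.0209 within the left domain, -0.2441 to 0.1189 within the right domain and -0.0791 to 0.0169 for the ZRS bin with the left domain. Against embryo bodies only, the Lmbr1 end differed by -0.0482 with the left and -0.0767 with the right domain, and insulation at bin 65 by -0.1134. Of the windows on one side, 1 was higher with a window of 3 bins, and 1 was higher and 3 lower without the pair of bins 66 and 70.

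Replicate numbers are shared by D700 and limb bud libraries. Deviations of same-numbered libraries correlated at -0.016, -0.135 and -0.003. With 2 libraries per group, these values cannot tell whether same-numbered libraries were prepared together. With the replicate number as a block, Shh with the ZRS differed by -0.0677 and the left with the right domain by 0.0151, 6 bin means were higher and 1 window on one side was higher. With 2 D700 libraries and an unknown depth, small differences may go undetected.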
